A study of Homo sapiens with 16 samples.

Results

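The nuclear lamina genes described here are 10 of the 19315 genes listed in at least 1 of 6 deposited tables: LMNB1, LMNB2, LMNA, LBR, EMD, TMPO, BANF1, LEMD3, SUN1 and SUN2. They were matched by gene symbol, each to 1 gene, and all 10 stand among the 12069 genes listed in all 6 tables, so the low-count limits of the tables removed none of them. LMNB1 was set at the head of the group because it had fallen after siRNA against MYBL1 in both cell lines. Its values in those 2 comparisons therefore chose it, and they are given below as a description with no test.

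HCT116 cells, a human line from a colorectal carcinoma, and U2OS cells, a human line from an osteosarcoma, were each transfected with small interfering RNA (siRNA), short double-stranded RNA that directs cleavage of a transcript with the matching sequence. In each line 1 group received a non-targeting siRNA (siCtrl), 1 siRNA against MYBL1 (siMYBL1), 1 siRNA against MYBL2 (siMYBL2) and 1 both targeting siRNAs together (the double knockdown), all for 48 hours. MYBL1 and MYBL2 encode the transcription factors A-MYB and B-MYB, and the stated purpose was to examine their function in the mitotic cell cycle. Each of the 8 groups had 2 paired-end libraries of total RNA, labelled as biological replicates, and the labels name no genetic change in either line. How many siRNA duplexes each target had is not given in the sources used here.

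Beneath the inner nuclear membrane lies the nuclear lamina, a meshwork of A-type lamins (LMNA) and B-type lamins (LMNB1, LMNB2). Membrane proteins such as the lamin B receptor (LBR), emerin (EMD), the LAP2 proteins (TMPO) and LEMD3 bind lamins, chromatin or the small DNA-binding protein BANF1, and the SUN proteins join the nucleus to the cytoskeleton. The lamina comes apart in mitosis and is rebuilt at its end, and loss of lamin B1 is widely used as a marker of senescent cells.

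The files hold 1 row per gene and comparison, with the mean normalized count over the 4 libraries, the log2 fold change of knockdown over siCtrl and its standard error (SE), and no values for single libraries. Below, values are log2 fold changes ± SE, and p-values are those of the authors' DESeq2 test after Benjamini-Hochberg (BH) adjustment over all genes of a table, unless a difference test is named. Normalized counts summed to between 17441617 and 19826741 per table, and the median SE of genes with a mean of at least 100 was 0.187 to 0.224. Levels are implied by the mean and fold change in the authors' deposited tables and are called scaled counts. In each table the sum over the 12069 genes listed in all 6 tables was set to 1000000. Markers of the labelled origins went partly with the lines. Control EPCAM stood at 304 to 310 in HCT116 and 13.4 to 13.7 in U2OS, and VIM at 2.56 to 2.65 and 1528 to 1575, with CDH1, CDX2 and KRT19 higher or listed in HCT116 alone and COL1A1, SPARC, RUNX2, ZEB1 and CDH2 higher or listed in U2OS alone. The epithelial KRT8 and KRT18 were higher in U2OS, at 2284 to 2350 and 1028 to 1065, than in HCT116, at 1739 to 1794 and 693 to 716, and the mesenchymal TWIST1 (3 tables) and COL1A2 (1 table) were listed in HCT116 and not in U2OS. VIL1 and CDX1 were listed in neither line, and 0 of 4 blood markers in any table. MYBL1 stood at 31.4% of control in HCT116 and 50.7% in U2OS after siMYBL1, and at 27.8% and 43.5% in the double knockdown; MYBL2 stood at 9.05% and 4.53% after siMYBL2 and at 9.92% and 4.34% in the double knockdown, per the authors' deposited tables. In bulk RNA, fewer cells of a type and less RNA per cell cannot be told apart.

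LMNB1 encodes lamin B1 (ENSG00000113368, chromosome 5, 126776623 to 126837020 of hg38, forward strand). Its 3′ untranslated region (3′ UTR) is shown first, because 1 stretch of it is shared with other genes that were low after siMYBL1. All 16384 sequences of 7 bases were ranked, on the sense strand only. Coding genes with a mean normalized count of at least 100 were used, with MYBL1 and MYBL2 left out. The mean log2 fold change of genes whose longest 3′ UTR held a sequence was set against that of the other genes. This difference was divided by a pooled error, and the most negative score ranked 1. Sequences held by fewer than 30 genes were set to a neutral score. GAACTTA ranked 1 after siMYBL1 in HCT116 and 1 in U2OS. LMNB1 was the only one of the 10 lamina genes with GAACTTA in an annotated 3′ UTR, where it held 1 copy. Of the genes ranked after siMYBL1, 9.88% in HCT116 and 10.03% in U2OS held it. A count of 1 in 10 is therefore near the background share and does not set the lamina genes apart. LBR also held the sequence in an annotated transcript, outside its annotated 3′ UTRs. OIP5, PPIC and PDCD5 were the 3 genes whose values over the 6 comparisons lay nearest to those of LMNB1. Those values include the siMYBL1 ones on which GAACTTA was ranked, so its presence in these genes is partly built in. The windows below give the LMNB1 copy beside theirs, with the match in capitals, 5′ to 3′ along the transcript. They lie at chr5:126836469-126836498 (LMNB1, forward), chr15:41309522-41309551 (OIP5, reverse), chr5:123023650-123023679 (PPIC, reverse) and chr19:32586677-32586706 (PDCD5, forward, the first of its 2 copies) of hg38, from the GENCODE 29 annotation.
LMNB1: ttattgacactGAACTTAataactgtgtac
OIP5: atttgccttaaGAACTTActttagattctt
PPIC: ttagggactttGAACTTAaatatatcccct
PDCD5: aattttatttgGAACTTAaaccaatagtta

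The LMNB1 copy starts at base 216 after the stop codon of a 3′ UTR of 756 bases (transcript ENST00000261366), and the OIP5 and PPIC copies start at bases 214 and 207 of 3′ UTRs of 486 and 625 bases. In LMNB1, PPIC and both copies of PDCD5 the 7 bases run on into the 8-base form GAACTTAA, and in OIP5 they do not. The 7-base sequence also occurs in the MYBL1 transcripts, at 2 places upstream of the 3′ UTR. The share of all genes with a copy upstream of the 3′ UTR was not computed, so this match has no background. A match of letters is a description and not a shown site, and the siRNA's own sequence was not given in the material used here.

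After siMYBL1 LMNB1 stood at 41.4% and 20.5% of control in HCT116 and U2OS, and none of the other 9 lamina genes passed the test. In HCT116, LMNB1 went from an implied 186 scaled counts in siCtrl to 77.1 after siMYBL1, a log2 fold change of -1.27 ± 0.15 in the authors' deposited table. In U2OS it went from 329 to 67.3, with -2.29 ± 0.18 in the authors' deposited table. Both LMNB1 values are descriptions. Of the other 9 genes, 0 passed an adjusted p of 0.05 in HCT116 and 0 in U2OS, by the authors' DESeq2 test, against 0.26% and 5.71% of all genes tested, and at an unadjusted p of 0.05 the counts were 0 and 2. The 2 were BANF1, at 0.62 ± 0.21 (BH-adjusted p = 0.0554), and LBR, at 0.42 ± 0.17 (BH-adjusted p = 0.139), in the authors' deposited table. Readjusted over genes with a mean of at least 100, BANF1 passed, with an adjusted p of 0.0477. The 95% intervals of the 9 log2 fold changes lay between -0.42 and 0.44 in HCT116 and between -0.67 and 1.03 in U2OS. The median of the 9 was 0.06 in HCT116 and 0.08 in U2OS, beside 0.00 and 0.02 over all genes.

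**Figure D1:**
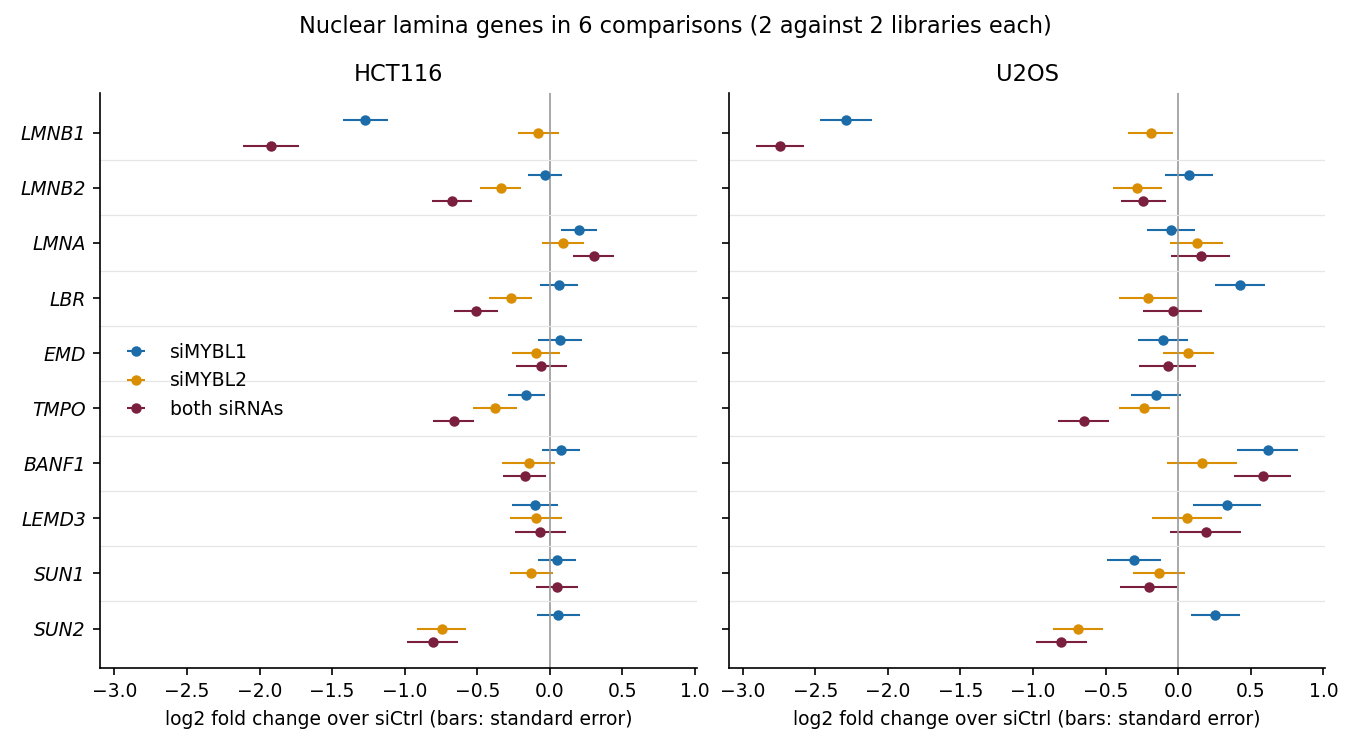
Log2 fold change over siCtrl (x axis) of the 10 lamina genes (y axis) after siMYBL1 (blue), siMYBL2 (orange) and both siRNAs (dark red) in HCT116 (left) and U2OS (right), as deposited, with bars of 1 standard error. LMNB1 lies at -1.27 and -2.29 after siMYBL1 and near 0 after siMYBL2, while SUN2 lies near or above 0 after siMYBL1 and at -0.75 and -0.69 after siMYBL2.

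Counted from the largest fall after siMYBL1, MYBL1 left out, LMNB1 held rank 3 of 11202 genes with a mean of at least 100 in HCT116 and rank 1 of 12006 in U2OS. Its neighbours were PPIC, a cyclophilin, at -1.58 ± 0.25 just below it and RNA5-8SN2, a ribosomal RNA gene, at -1.21 ± 1.87 just above it in HCT116. In U2OS the next gene was ENPP4 at -1.98 ± 0.30, all in the authors' deposited tables. The SE of RNA5-8SN2 was larger than its change.

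After siMYBL2 the order of the lamina genes was another one. LMNB1 stood at -0.08 ± 0.14 (BH-adjusted p = 0.999) in HCT116 and at -0.19 ± 0.15 (BH-adjusted p = 0.723) in U2OS per the authors' deposited tables, which leaves 94.6% and 87.7% of the siCtrl level. Its 95% intervals ran from -0.36 to 0.20 and from -0.49 to 0.11. SUN2 was the 1 lamina gene of 10 that passed in HCT116 and the 1 of 10 in U2OS, against 1.13% and 5.2% of all genes tested. SUN2 spans the inner nuclear membrane and binds nesprins in the space between the nuclear membranes.

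In the double knockdown LMNB1 fell to -1.92 ± 0.19 (BH-adjusted p = 1.26e-20) in HCT116 and to -2.74 ± 0.16 (BH-adjusted p = 4.65e-59) in U2OS, per the authors' deposited table. These are 26.4% and 14.9% of control, or 50.9 and 50.1 scaled counts from 193 and 336. The comparisons use the same control libraries as those that chose LMNB1, and the same MYBL1 siRNA. Against siMYBL2 alone, where the controls cancel, LMNB1 was lower by a log2 difference of -1.84 ± 0.24 (BH-adjusted p = 1.97e-10) in HCT116 and -2.55 ± 0.22 (BH-adjusted p = 3.47e-26) in U2OS. None of the other lamina genes passed that difference test in either line, against 0.645% of all genes in HCT116 and 1.05% in U2OS. LMNB1 itself was chosen for its fall after the same MYBL1 siRNA, so its passing says nothing about the group. Against siMYBL1 alone the LMNB1 difference was -0.65 ± 0.25 in HCT116 and -0.46 ± 0.24 in U2OS, given as a description.

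The lamina genes that moved in the double knockdown were mostly lower. In HCT116, 5 of 10 fell and 0 rose, against 4.12% lower, 2.82% higher and 6.95% in either direction over all genes, and 4 of these 5 were genes other than LMNB1. In U2OS, 3 of 10 fell and 1 rose, against 6.06% lower, 6.55% higher and 12.6% in either direction over all genes. Of these 4, 3 were genes other than LMNB1. The median log2 fold change of the 9 genes other than LMNB1 was -0.17 in HCT116 and -0.07 in U2OS, beside -0.02 and 0.01 over all genes. LMNB1, TMPO and SUN2 fell in both lines, LMNB2 and LBR passed in HCT116 and not in U2OS, and BANF1 rose in U2OS; the differences between the lines are given with each gene.

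Among the lamins, LMNB2 encodes the second B-type lamin (ENSG00000176619, chromosome 19, 2427638 to 2456959, reverse strand). In the authors' deposited tables of HCT116 it stood at -0.03 ± 0.12 after siMYBL1 and -0.34 ± 0.14 (BH-adjusted p = 0.390) after siMYBL2, and fell to -0.67 ± 0.14 (BH-adjusted p = 5.59e-05) in the double knockdown, 62.6% of control. In U2OS it stood at 0.08 ± 0.16, -0.28 ± 0.17 and -0.24 ± 0.16 (BH-adjusted p = 0.387) in the authors' deposited tables. The difference between the lines in the double knockdown was 0.43 ± 0.21 (BH-adjusted p = 0.474) and did not pass. In HCT116 the double knockdown lay below siMYBL1 alone by -0.64 ± 0.18 (BH-adjusted p = 0.0325), and this call was lost when each table was centred on its median (adjusted p = 0.0642). LMNA, the A-type lamin gene (ENSG00000160789, chromosome 1, 156082573 to 156140081, forward strand), passed in 0 of 6 comparisons, between -0.05 in U2OS after siMYBL1 and 0.30 ± 0.14 (BH-adjusted p = 0.206) in the HCT116 double knockdown in the authors' deposited tables.

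Of the membrane proteins that bind lamins, TMPO, which encodes the LAP2 proteins (ENSG00000120802, chromosome 12, 98515579 to 98550351, forward strand), fell by nearly the same amount in the double knockdowns of both lines. It stood at -0.16 ± 0.13 after siMYBL1 and -0.38 ± 0.15 (BH-adjusted p = 0.318) after siMYBL2 in HCT116 and fell to -0.66 ± 0.14 (BH-adjusted p = 0.000205) in the double knockdown, per the authors' deposited tables. In U2OS the values were -0.15 ± 0.17, -0.23 ± 0.18 and, passing, -0.65 ± 0.18 (BH-adjusted p = 0.00354) in the authors' deposited tables. The double knockdown left 63.2% and 63.6% of the control level. TMPO shares 713 of its 8593 exonic bases with the antisense gene TMPO-AS1, and whether counting used strand is not given in the sources used here.

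LBR (ENSG00000143815, chromosome 1, 225401502 to 225428925, reverse strand) encodes the lamin B receptor, which also has sterol reductase activity. It fell in the HCT116 double knockdown, to -0.51 ± 0.15 (BH-adjusted p = 0.0178), and was at -0.04 ± 0.20 (BH-adjusted p = 0.952) in U2OS, per the authors' deposited tables. The difference between the lines, 0.47 ± 0.25 (BH-adjusted p = 0.573), did not pass. EMD (ENSG00000102119, chromosome X, 154379273 to 154381574, forward strand), the emerin gene, ranged from -0.10 to 0.07 over the 6 comparisons and passed in 0. LEMD3 (ENSG00000174106, chromosome 12, 65169583 to 65248355, forward strand), an inner membrane protein that binds SMAD proteins, ranged from -0.10 to 0.34 and passed in 0, and had the lowest level per length of the 10 genes in both lines, per the authors' deposited tables.

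BANF1 (ENSG00000175334, chromosome 11, 66002228 to 66004149, forward strand) encodes the barrier-to-autointegration factor, which cross-links chromatin and binds LEM domain proteins. It was the only lamina gene that rose, to 0.58 ± 0.20 (BH-adjusted p = 0.0282) in the U2OS double knockdown in the authors' deposited table, 150% of control, while the HCT116 double knockdown gave -0.17 ± 0.15 (BH-adjusted p = 0.607). The difference between the lines was 0.76 ± 0.25 (BH-adjusted p = 0.106) and did not pass. The annotation holds 5 pseudogenes named after BANF1 and 2 named after TMPO, so reads could be split between copies. BANF1 also shares 98 of 1645 exonic bases with EIF1AD on the other strand.

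Of the SUN genes, SUN2 passed in 4 of 6 comparisons and SUN1 in 0. SUN2 (ENSG00000100242, chromosome 22, 38733290 to 38794143, reverse strand) stood at 0.06 ± 0.15 after siMYBL1 in HCT116 and fell to -0.75 ± 0.17 (BH-adjusted p = 0.00264) after siMYBL2 and to -0.81 ± 0.18 (BH-adjusted p = 0.000211) in the double knockdown, per the authors' deposited tables. In U2OS it stood at 0.26 ± 0.17 after siMYBL1 and fell to -0.69 ± 0.17 (BH-adjusted p = 0.00317) after siMYBL2 and to -0.81 ± 0.18 (BH-adjusted p = 0.000125) in the double knockdown, per the authors' deposited tables. Between 57.1% and 61.9% of the control level remained in these 4 comparisons.

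The double knockdown lowered SUN2 relative to siMYBL1 alone, by -0.87 ± 0.23 (BH-adjusted p = 0.0154) in HCT116 and -1.06 ± 0.24 (BH-adjusted p = 0.00156) in U2OS. Relative to siMYBL2 alone the differences were -0.06 (95% interval -0.54 to 0.42) and -0.11 (95% interval -0.60 to 0.37). SUN2 and LMNB2 were the 2 of 10 genes that passed against siMYBL1 in HCT116 and SUN2 the 1 of 10 in U2OS, against 1.28% and 1.54% of all genes. With the shared control variance taken out of the error, LBR and TMPO passed too in HCT116. SUN1 (ENSG00000164828, chromosome 7, 816615 to 896435, forward strand), the other widely expressed SUN gene, ranged from -0.30 to 0.05 in the authors' deposited tables. SUN2 shares 680 of its 6489 exonic bases with GTPBP1 on the other strand, and SUN1 shares 1842 of 11811 with GET4 on the same strand, so reads in those stretches could be credited to either gene.

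In the same ranking after siMYBL2, CCTTACA came first in both lines. In a 3′ UTR, 0 of the 10 lamina genes held it, beside 8.76% and 9.03% of the genes used in HCT116 and U2OS. The highest sequence that did not overlap it, ACGCCCA, ranked 4 in HCT116 and 5 in U2OS, and 1007 and 543 in the double knockdowns. SUN2 was the only lamina gene of the 10 with ACGCCCA in its 3′ UTR, beside 4.96% and 4.91% of the genes used in HCT116 and U2OS. The window is shown in the same way, from chr22:38734725-38734754 of hg38 on the reverse strand, with the match in capitals.
SUN2: aaaaataaatgACGCCCAagagctgtggga

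That copy starts at base 1524 of a 3′ UTR of 1542 bases, with 12 bases after it. Genes with ACGCCCA had a median of -0.07 after siMYBL2 in HCT116 and -0.04 in U2OS, beside -0.03 and 0.00 in genes without it. The sequence was looked for after the siMYBL2 values were seen.

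LMNB1 lay far out among the genes that hold GAACTTA. In HCT116 after siMYBL1, 1052 of 10647 genes (9.88%) held it, with a median log2 fold change of -0.07, beside 0.02 in the 9595 without it. Of those with it 15 fell (1.43%), and of those without it 6 (0.0625%). In U2OS 1111 genes held it, with a median of -0.09 beside 0.03, and 115 of them fell (10.4%), as did 199 of the 9961 others. LMNB1 is among the 15 and the 115. The sequence was chosen on these values, so these counts describe it and do not test it.

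Ranks were computed in the other comparisons too. GAACTTA ranked 887 in HCT116 and 8590 in U2OS after siMYBL2, where its genes had medians of -0.03 and 0.03, and it ranked 1 in both double knockdowns, which share the MYBL1 siRNA and the controls with the single ones. Ranked without the 10 lamina genes, it kept rank 1 after siMYBL1 in both lines. Most genes with the sequence changed far less than LMNB1: only PPIC lay below LMNB1 in HCT116, and 0 in U2OS.

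**Figure D2:**
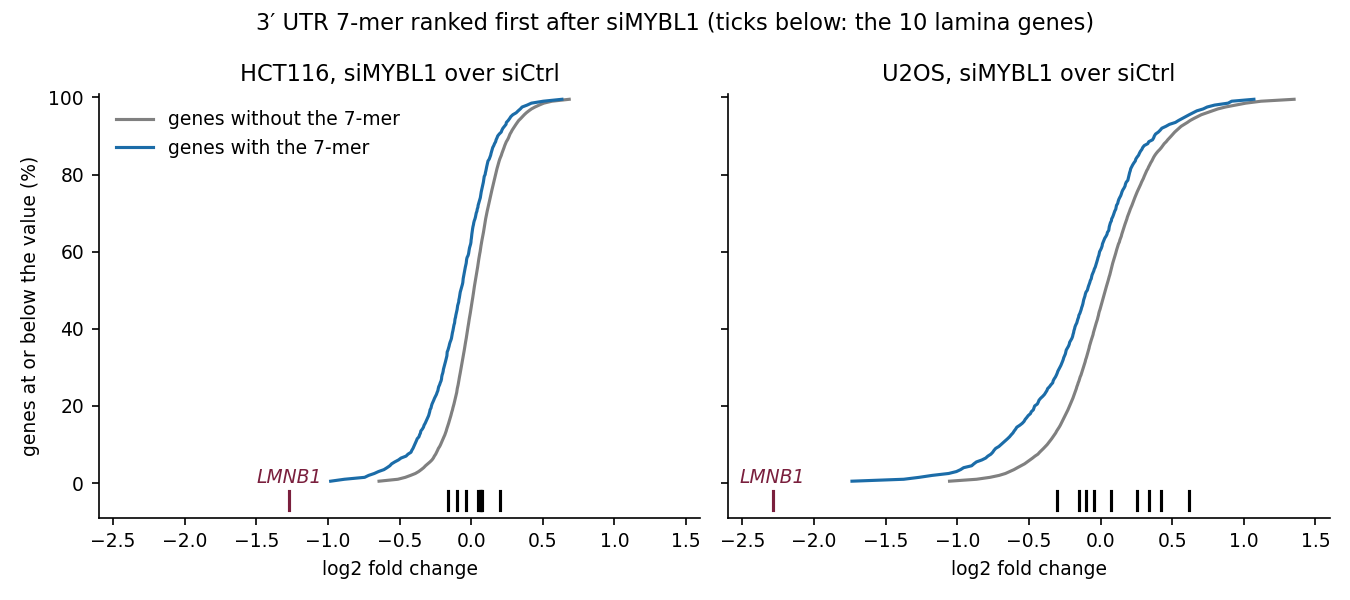
Cumulative share of genes (y axis, %) by log2 fold change after siMYBL1 (x axis) in HCT116 (left) and U2OS (right), for genes with (blue) and without (grey) the 7-base sequence in the longest 3′ UTR, drawn to the ends of the plotted percentiles. Ticks below mark the 10 lamina genes; LMNB1, at -1.27 and -2.29, lies left of both curves, and the other 9 lie within them.

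The genes whose 6 log2 fold changes lay closest to those of LMNB1, by Euclidean distance among 10265 genes with a mean of at least 100 in every table, were OIP5 (distance 0.94), PPIC (1.404), PDCD5 (1.61), HMMR (1.63), AURKA (1.65) and ARHGEF39 (1.73). OIP5, which acts in loading of the centromeric histone, had values of -0.94, -0.38 and -1.57 in HCT116 and -1.95, -0.46 and -2.14 in U2OS after siMYBL1, siMYBL2 and both, in the authors' deposited tables. GAACTTA was in the 3′ UTR of the nearest 3 and was not in the longest 3′ UTR of HMMR, AURKA or ARHGEF39. Of the genes ranked after siMYBL1 in HCT116, 9.88% held it. Both the sequence and the nearest genes were picked on values that include those after siMYBL1. Its presence in the nearest genes is therefore partly built in and is a description with no test. By Pearson correlation over the same 6 values, 1 of the 6 genes stayed among the nearest 6. The lamina gene nearest to LMNB1 was TMPO, at rank 643.

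Genes of the late cell cycle, from a list of 68 with roles in G2 and mitosis that holds none of the lamina genes but does hold HMMR and AURKA, are set beside LMNB1 here. After siMYBL1, 0 of 68 passed in HCT116 (18 at an unadjusted p of 0.05 by DESeq2), with a median of -0.21, and 31 fell in U2OS, with a median of -0.52, in the authors' deposited tables. All 68 lay above LMNB1 in both lines. After siMYBL2, 31 fell in HCT116 (median -0.56) and 40 in U2OS (median -0.67), and 67 and 62 of 68 lay below LMNB1. In the double knockdown 68 fell in HCT116 (median -1.72) and 67 in U2OS (median -2.08), with 25 and 14 below LMNB1. The shares of all genes called were 0.26%, 1.13% and 6.95% in HCT116 after siMYBL1, siMYBL2 and both. In U2OS they were 5.71%, 5.2% and 12.6%. KIF20A, a kinesin of cytokinesis, fell to -3.64 ± 0.18 (BH-adjusted p = 3.92e-88) in U2OS and TOP2A, topoisomerase II alpha, to -2.45 ± 0.17 (BH-adjusted p = 3.65e-42) in HCT116 in the authors' deposited tables. TMPO, at -0.66 and -0.65, lay above every one of the 68 in HCT116 and above all but 1, PLK4, in U2OS.

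**Figure D3:**
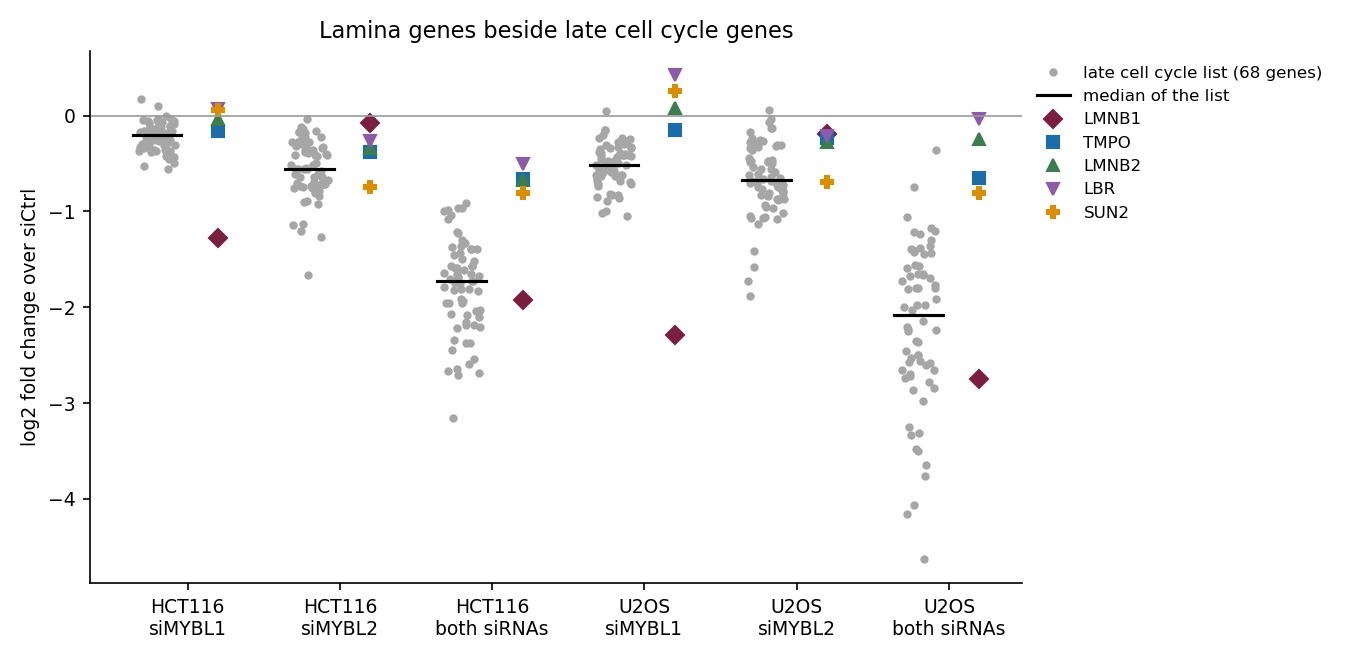
Log2 fold change over siCtrl (y axis) in the 6 comparisons (x axis) for 68 late cell cycle genes (grey points, black line at their median) and for LMNB1, TMPO, LMNB2, LBR and SUN2 (coloured symbols). LMNB1 lies below all grey points after siMYBL1, above most after siMYBL2 and among them with both siRNAs, where the medians are -1.72 and -2.08.

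Promoter letters were compared because LMNB1, LMNB2, LBR, TMPO and SUN2 fell together in the HCT116 double knockdown. The cell cycle homology region (CHR), an element bound by MuvB complexes, was searched on both strands as TTTGAA (in 15.4% of 27305 promoters of this length), as TTTAAA (12.3%) and as TTCGAA (1.45%), from 250 bases before to 50 after each start in RefSeq (GRCh38.p14), where 9 of the 10 genes had an entry. All 5 genes held 1 of the first 2 forms, TTTGAA in LMNB2 and SUN2 and TTTAAA in LMNB1, LBR and TMPO. LMNA and BANF1, which did not fall, also held TTTAAA, and EMD and LEMD3 held neither. The share of all promoters with either form was not computed, so the count of 5 has no matching background. The windows below run 5′ to 3′ along the gene, with the match in capitals, at chr5:126776386-126776415 (LMNB1, forward), chr19:2457180-2457209 (LMNB2, reverse), chr1:225428960-225428989 (LBR, reverse), chr12:98515447-98515476 (TMPO, forward) and chr22:38756092-38756121 (SUN2, reverse). In SUN2 the capitals are TTTGAA read on the other strand. The SUN2 window lies inside the gene span of 38733290 to 38794143, so the RefSeq start used is not its outermost annotated start. The other windows shown lie just outside the spans of their genes.
LMNB1: gttggcaaatgaTTTAAAatcagggttgct
LMNB2: gttcTTTGAAcacgttttgaggttctctaa
LBR: tcaatggactgcTTTAAActctcgacctca
TMPO: gccccagcgcctTTTAAActgcgtttctac
SUN2: cggggctttgtgTTCAAAccggccaatggg

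Relative to the start the matches begin at -225, -246, -156, -114 and -111 in this order. CCAAT, the letters bound by NF-Y, was found in LMNA, EMD, TMPO, LEMD3 and SUN2 (35.7% of all promoters), and the MYB core AACNG in all 9 (77.1%). These letters describe the windows and were not tied to the measured changes by any test.

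Control levels are given with no test. Per kilobase of exon, implied siCtrl levels in HCT116 ran from BANF1 (118), LMNB2 (94.6), LMNA (69.0) and LMNB1 (51.9) through EMD (38.7), TMPO (37.2) and LBR (31.4) to SUN1 (11.3), SUN2 (10.97) and LEMD3 (9.29), in scaled counts per kilobase. In U2OS the order was BANF1 (108), LMNB1 (92.4), LMNB2 (72.1), LMNA (56.4), EMD (49.6), LBR (34.0), SUN2 (15.9), TMPO (15.6), SUN1 (9.11) and LEMD3 (6.06), in the same unit. The 3 tables of a line share their 2 control libraries, so their ranges show rescaling and not the spread between libraries. Of neighbours in these orders, only SUN2 and TMPO in U2OS had overlapping ranges, and whether neighbours differ beyond the spread between libraries could not be judged. The orders also depend on the length used. By the longest transcript, LMNB1 ranked 6 in HCT116 and 3 in U2OS, in place of 4 and 2. LMNA then ranked 2 in both lines, in place of 3 and 4. LMNB1 was 1.78 times as high in U2OS as in HCT116, and TMPO 2.39 times as high in HCT116 as in U2OS, from lines that were normalized separately.

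**Figure D4:**
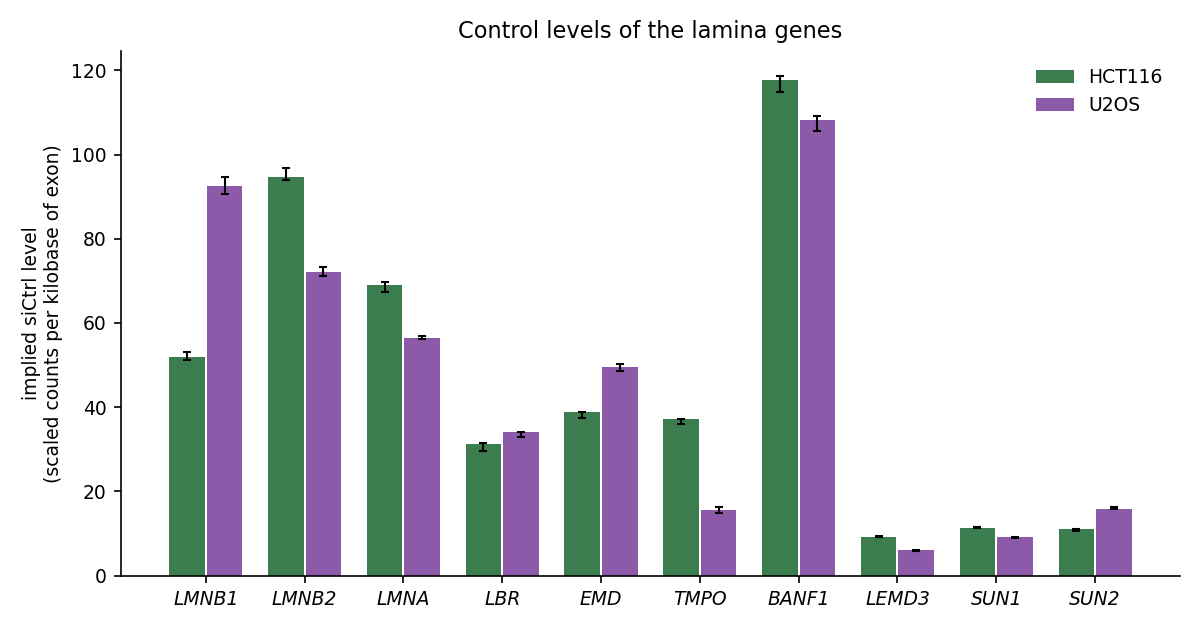
Implied siCtrl level per kilobase of exon (y axis, scaled counts per kilobase, from 0) of the 10 lamina genes (x axis) in HCT116 (green) and U2OS (purple). Bars show the median of the 3 tables of a line and whiskers their lowest and highest value; LMNB1 is higher in U2OS (92.4 against 51.9) and TMPO in HCT116 (37.2 against 15.6).

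Between the lines, 0 of 10 genes differed after siMYBL2 (0 at an unadjusted p of 0.05, background 0.215%) and 0 of 10 in the double knockdown (3 at an unadjusted p of 0.05, background 1.27%), by the difference test on the DESeq2 estimates. For LMNB1 in the double knockdown the difference, U2OS minus HCT116, was -0.82 ± 0.25 (BH-adjusted p = 0.0732) and did not pass. After siMYBL1, 0 of the 9 other genes differed (background 0.0594%), with BANF1 nearest at 0.54 ± 0.25 (BH-adjusted p = 0.888). The double knockdown departed from the sum of the single log2 fold changes for 0 of the 9 other genes in HCT116 and 0 in U2OS, and 0 did so at an unadjusted p of 0.05, against 0.14% and 0.211% of all genes. For LMNB1 the departure was -0.57 ± 0.29 in HCT116 and -0.27 ± 0.29 in U2OS, as a description.

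Partners of the lamina in the nuclear envelope were counted against the shares of all genes called, which were 0.26%, 1.13% and 6.95% in HCT116 and 5.71%, 5.2% and 12.6% in U2OS after siMYBL1, siMYBL2 and both. Of 23 such genes, all listed in every table, 0 passed in HCT116 after siMYBL1 (2 at an unadjusted p of 0.05), 1 rose after siMYBL2 and 1 fell in the double knockdown. In U2OS 1 fell after siMYBL1, 1 rose and 1 fell after siMYBL2, and 2 rose and 2 fell in the double knockdown. With 0 to 4 genes called, these counts are read as no result about the list. Medians lay between -0.06 and 0.06, and those of all genes between -0.02 and 0.02. NEMP1, an inner membrane protein, fell to -0.74 ± 0.20 (BH-adjusted p = 0.00742) in the HCT116 double knockdown in the authors' deposited table. SYNE1, which encodes the nesprin 1 that SUN proteins bind, rose to 0.94 ± 0.23 (BH-adjusted p = 0.00087) in the U2OS one. In the HCT116 one SYNE1 stood at 0.91 ± 0.31 (BH-adjusted p = 0.0518) and did not pass, both in the authors' deposited tables. PRR14, a protein that ties heterochromatin to the lamina, fell to -1.69 ± 0.23 (BH-adjusted p = 1.48e-11) in the U2OS double knockdown in the authors' deposited table.

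Enzymes that mature prenylated lamins gave 1 gene that fell, and it did so in the same 4 comparisons as SUN2. ICMT, which methylates the lamin C terminus, fell to -0.88 ± 0.18 (BH-adjusted p = 0.000315) after siMYBL2 and -0.999 ± 0.187 (BH-adjusted p = 7.51e-06) in the double knockdown in HCT116, per the authors' deposited tables. The U2OS values were -1.09 ± 0.18 (BH-adjusted p = 1.29e-07) and -0.94 ± 0.19 (BH-adjusted p = 2.32e-05) in the authors' deposited tables. The other 4 of the 5 enzymes passed in 0 of 6 comparisons, and the list medians lay between -0.09 and 0.02. ZMPSTE24, the prelamin A protease, stood at -0.54 ± 0.19 (BH-adjusted p = 0.0548) and -0.57 ± 0.21 (BH-adjusted p = 0.0548) in the double knockdowns in the authors' deposited tables. ICMT holds 1 copy of ACGCCCA in its longest 3′ UTR, as do 4.96% and 4.91% of the genes used in HCT116 and U2OS after siMYBL2. ACGCCCA was picked on the siMYBL2 values and looked for in ICMT after they were seen. Its presence there is a description with no test, and ACGCCCA was not looked for in the other 4 enzymes. Of the other named genes of the envelope and pore lists in which it was looked for, POM121C also holds 1 there, while PRR14, at -1.53 after siMYBL2 in U2OS in the authors' deposited table, NEMP1, NUP58, NUP107 and POM121 hold 0, although POM121 holds 1 in another annotated 3′ UTR.

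Of 31 nuclear pore genes, 0 passed after siMYBL1 or siMYBL2 in HCT116 (1 and 2 at an unadjusted p of 0.05) and 2 fell in the double knockdown, while 1, 2 and 5 fell in U2OS, with 0 higher anywhere. Over all genes the shares called were 0.26%, 1.13% and 6.95% in HCT116 and 5.71%, 5.2% and 12.6% in U2OS, in the same order. With 0 to 5 genes called, these counts are read as no result about the list. The medians were 0.04, -0.13 and -0.25 in HCT116 and -0.12, -0.05 and -0.10 in U2OS. NUP58 fell to -0.54 ± 0.15 (BH-adjusted p = 0.00926) and NUP107 to -0.59 ± 0.19 (BH-adjusted p = 0.0290) in the HCT116 double knockdown in the authors' deposited table. POM121 and POM121C, both at -0.89 in the U2OS double knockdown in the authors' deposited table, are near-identical copies, so their separate values are uncertain.

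Senescence-associated genes were partly listed: 10, 7 and 7 of 17 in HCT116 and 7, 6 and 8 in U2OS, after siMYBL1, siMYBL2 and both. The listed sets differ between tables, and a low gene may be listed only where a knockdown raised it, so the counts of rises cannot be compared between tables and no median is given. In HCT116, 0 passed after siMYBL1 (1 at an unadjusted p of 0.05), 1 rose after siMYBL2 and 3 rose in the double knockdown. In U2OS, 3, 0 and 6 rose (5, 2 and 7 at an unadjusted p of 0.05), and 0 fell in any comparison. All genes were called at shares of 0.26%, 1.13% and 6.95% in HCT116 and 5.71%, 5.2% and 12.6% in U2OS, in the same order. CDKN1A, the p21 inhibitor of cyclin-dependent kinases, rose to 1.70 ± 0.17 (BH-adjusted p = 8.53e-21) in the HCT116 double knockdown, and CXCL8, a chemokine, to 3.80 ± 0.52 (BH-adjusted p = 3.88e-11) in the U2OS one, in the authors' deposited tables. Whether these changes bear on LMNB1 was not tested. Of the epithelial markers 2 rose in the HCT116 double knockdown and 1 fell in the U2OS one, and of the mesenchymal and bone markers 1 rose after siMYBL1 in U2OS, 1 fell after siMYBL2 there and 2 rose and 1 fell in its double knockdown, with 0 in the other comparisons.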

How the data were processed

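The submitters' processing notes name cutadapt 4.4, Salmon 1.10.1, DESeq2 1.40 and the build hg38, with settings, annotation and filters not given in the sources used here. What the authors deposited were 6 DESeq2 tables, each setting 1 knockdown beside the siCtrl of the same line. Their base mean, a deposited signal, averages normalized counts over 4 libraries, per the file headers. Fold changes were deposited as log2 values with an SE on that scale, and the deposited Wald statistic is a score. Each deposited p-value matched a 2-sided normal test of that score, and the adjusted p-value matched Benjamini-Hochberg over the listed genes.

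Read depth per library is unknown. Replicates were labelled as biological; p-values rest on 2 against 2 libraries. Group levels were implied from the base mean and the fold change, assuming 2 libraries a group. Differences between fold changes were divided by the root of their summed squared SEs, with a normal p adjusted over all genes in the tables compared. Controls shared within a line make this error too wide. Transcript models came from GENCODE 29. All calls used an adjusted p of 0.05. Scripts used Python 3.11.15 with numpy 2.4.6, pandas 2.3.3 and scipy 1.17.1, and were tested on simulated data.

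Members and lists were chosen with earlier results of these data known. Named were the 10 genes, the targets, the 6 genes nearest to LMNB1, its neighbours after siMYBL1, and at most 4 genes per list with the smallest adjusted p in the double knockdowns (2 per line). The lists were nuclear envelope partners, lamin processing enzymes, nuclear pore, late cell cycle, senescence-associated, epithelial, mesenchymal and bone, and blood genes. Alternatives changed the genes adjusted over, centring, threshold, error of differences, likeness measure, 3′ UTR definition and gene length.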

Additional observations from a re-analysis of the deposited data

Results flagged for a closer look

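The LMNB1 log2 fold change after siMYBL1 was lower in U2OS than in HCT116 by -1.02 (SE 0.23), from -2.29 and -1.27 in the authors' deposited tables. A difference between the cell lines drew attention to it. LMNB1 was chosen for its fall in both comparisons, so the value is a description with no test. MYBL1 itself, with mean normalized counts of 192 in U2OS and 184 in HCT116, stood at 50.7% and 31.4% of control. Its log2 fold changes were -0.98 (SE 0.31) and -1.67 (SE 0.32) in the authors' deposited tables. Whether MYBL1 differed between the lines was not tested.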

How the results depend on the processing

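No paired analysis was possible because the tables hold no values per library, and the replicate block and the leaving out of single libraries were not run for the same reason. LMNB1 is counted here where siMYBL1 values enter, but as the gene chosen by them and not as a test passed. With it, the count of lamina genes under the threshold after siMYBL1 in U2OS went from 1 to 2, through BANF1, when p was readjusted over genes whose base mean reached 100 and when the threshold was 0.1. The count that differed between the double knockdown and siMYBL1 in HCT116 went from 2 to 1 with median-centred fold changes (LMNB2 lost) and to 5 with the shared control variance taken out (LBR and TMPO added, besides LMNB1). That last setting lays an assumed share of each squared SE to the controls. At a threshold of 0.01 the double knockdown counts went from 5 to 4 in HCT116, without LBR (adjusted p = 0.0178), and from 4 to 3 in U2OS, without BANF1 (0.0282). All other counts of lamina genes called, and the rank 1 of GAACTTA after siMYBL1 and of CCTTACA after siMYBL2, were the same under the alternatives run; no direction reversed. Leaving the 10 genes out of the 7-base ranking, and the siMYBL2 ranking, were chosen after seeing the data. With the longest transcript as length, 9 of 20 ranks of level moved. With 2 libraries a group and a median SE near 0.2, changes of the size seen for EMD or SUN1 were not detectable.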
